A study of Mus musculus with 9 samples.

Results

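The proteasome genes were examined at their start sites in C127 cells, an established mouse mammary epithelial line, to see which of them begin in a non-methylated island (NMI), a stretch of CpG-rich DNA that carries no methyl groups on its CpG sites. They were all protein-coding genes of the GENCODE M21 annotation whose symbol is Psm followed by a letter from a to g and a digit, 50 of 21938 protein-coding genes. NMIs had been mapped by Bio-CAP, in which the CXXC zinc finger domain of KDM2B captures non-methylated CpG DNA from purified genomic DNA. The series holds 9 samples of C127 cells, made up of 1 Bio-CAP library and its input, 3 ATAC libraries and an ATAC input for open chromatin, and 3 libraries of newly made RNA labelled with 4-thiouridine (4sU). The list of 13491 NMIs rests on the single Bio-CAP library, and the ATAC and RNA libraries were not analysed here. The list gives positions with no height or score, so there is no replicate, depth or error for any single NMI and no test was possible. A gene counts as having an NMI when at least 1 bp of an NMI covers the transcription start site (TSS) of any of its annotated transcripts, and a gene without one is a gene with no listed NMI there, which is not itself a measurement of methylation. All positions are in mouse build mm10.

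The proteasome is the large protease that degrades proteins marked with ubiquitin. Its barrel-shaped core is built of rings of α and β subunits, some of the β subunits carry the active sites, and a cap with a ring of ATPases binds the marked protein, removes the ubiquitin and threads the chain into the core. In lymphoid and interferon-treated cells the immune β subunits take the place of the standard catalytic ones and change which peptides are offered on class I molecules, while the thymus and the testis have core subunits of their own.

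An NMI covered a TSS in 47 of the 50 proteasome genes (94%, exact Clopper-Pearson 95% interval 83.5 to 98.7%), against 10425 of 21938 protein-coding genes (47.5%). At the principal TSS, the start of the transcript ranked first by the annotation, the counts were 46 of 50 proteasome genes (92%) and 9666 of 21938 protein-coding genes (44.1%). These intervals cover counting error only and treat genes as separate draws. Core subunits had an NMI in 14 of 14 genes, standard cap subunits in 17 of 17 and immune subunits in 3 of 3, whereas neither of the 2 testis or thymus subunits had one. At the principal TSS the immune count was 2 of 3, without Psmb10, and the other counts of these classes stayed the same. The genes without an NMI at any TSS were Psma8, a testis α subunit, Psmb11, a thymus β subunit, and Psme2b, an intronless near-copy of an activator gene. With 14, 17 and 3 genes, the exact 95% intervals reached down to 76.8, 80.5 and 29.2%, and for the testis or thymus pair the interval ran from 0 to 84.2%, so the smallest classes are not separated by their counts.

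Start-site sequences of the pairs on which the classes turn are shown first, from the RefSeq promoter table of GRCm38.p6, which uses the coordinates of mm10. Each run reads 5′ to 3′ on the gene's strand, is cut to the bases before both the RefSeq and the GENCODE start, and has its CpG sites in capitals. Psmb11 (chr14:54625060-54625309, plus strand), the thymus β subunit, has 4 CpG sites in 250 bases, and none of these bases lies in an NMI. Psmb5 (chr14:54618023-54618245, minus strand), its standard counterpart, has 14 CpG sites in 223 bases, and every base lies in its NMI.
Psmb11: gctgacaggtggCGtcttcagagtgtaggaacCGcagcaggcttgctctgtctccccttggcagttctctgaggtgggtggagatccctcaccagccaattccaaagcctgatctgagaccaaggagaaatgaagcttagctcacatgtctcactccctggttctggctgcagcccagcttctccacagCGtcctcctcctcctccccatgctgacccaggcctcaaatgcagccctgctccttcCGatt
Psmb5: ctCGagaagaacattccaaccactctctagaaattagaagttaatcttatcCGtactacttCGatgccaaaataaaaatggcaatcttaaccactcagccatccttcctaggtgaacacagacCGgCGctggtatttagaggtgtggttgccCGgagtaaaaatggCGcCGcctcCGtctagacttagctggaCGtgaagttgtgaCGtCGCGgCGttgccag

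A second pair is an intronless copy of an activator gene and its parent. Psme2b (chr11:48946411-48946660, minus strand) has 2 CpG sites in 250 bases, with none of the bases in an NMI, and its RefSeq start lies 220 bp upstream of the GENCODE one. Psme2 (chr14:55591102-55591351, minus strand), which encodes a subunit of the interferon-inducible activator ring, has 10 CpG sites in 250 bases, all 250 of them in an NMI.
Psme2b: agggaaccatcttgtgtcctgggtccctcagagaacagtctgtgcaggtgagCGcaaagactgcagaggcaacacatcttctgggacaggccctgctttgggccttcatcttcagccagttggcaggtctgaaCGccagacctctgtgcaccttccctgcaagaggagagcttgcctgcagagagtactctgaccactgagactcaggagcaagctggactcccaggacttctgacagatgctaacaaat
Psme2: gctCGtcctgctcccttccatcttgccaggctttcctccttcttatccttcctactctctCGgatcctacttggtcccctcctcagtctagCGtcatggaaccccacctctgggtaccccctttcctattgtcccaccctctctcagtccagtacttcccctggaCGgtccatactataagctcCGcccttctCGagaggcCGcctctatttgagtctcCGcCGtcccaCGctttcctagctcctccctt

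The third set spans the range among genes that do have an NMI. Psma7 (chr2:180042465-180042714, minus strand), an α subunit, has 35 CpG sites in 250 bases, all inside its NMI. Psmb10 (chr8:105938445-105938642, minus strand), the immune trypsin-like subunit, has 3 CpG sites in 198 bases, and none of these bases is in an NMI, because its NMI begins inside the gene.
Psma7: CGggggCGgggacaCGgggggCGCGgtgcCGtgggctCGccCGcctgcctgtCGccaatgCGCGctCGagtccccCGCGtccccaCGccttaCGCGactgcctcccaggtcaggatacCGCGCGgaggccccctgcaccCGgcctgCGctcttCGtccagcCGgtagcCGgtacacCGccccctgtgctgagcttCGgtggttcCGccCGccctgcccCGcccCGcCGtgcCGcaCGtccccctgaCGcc
Psmb10: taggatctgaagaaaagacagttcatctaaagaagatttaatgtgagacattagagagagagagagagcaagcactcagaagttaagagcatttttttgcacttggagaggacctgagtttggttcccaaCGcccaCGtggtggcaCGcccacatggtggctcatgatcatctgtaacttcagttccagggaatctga

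Across the 42 proteasome genes found in the promoter table, the full window of 250 bases before and 50 after the RefSeq start held a median of 19 CpG sites, against 23 in 8226 protein-coding genes with an NMI and 4 in 8296 protein-coding genes without one. The 42 include Psmb11 and Psme2b, which have no NMI, so they are not split by NMI as the other sets are. The window lay wholly inside an NMI in 34 genes and partly in 5, and it lay outside in Psmb10, Psmb11 and Psme2b. Psma8, Psmb1, Psmb2, Psmb7, Psmc3, Psmd3, Psmd7 and Psmg2 had no entry in the table.

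**Figure D1:**
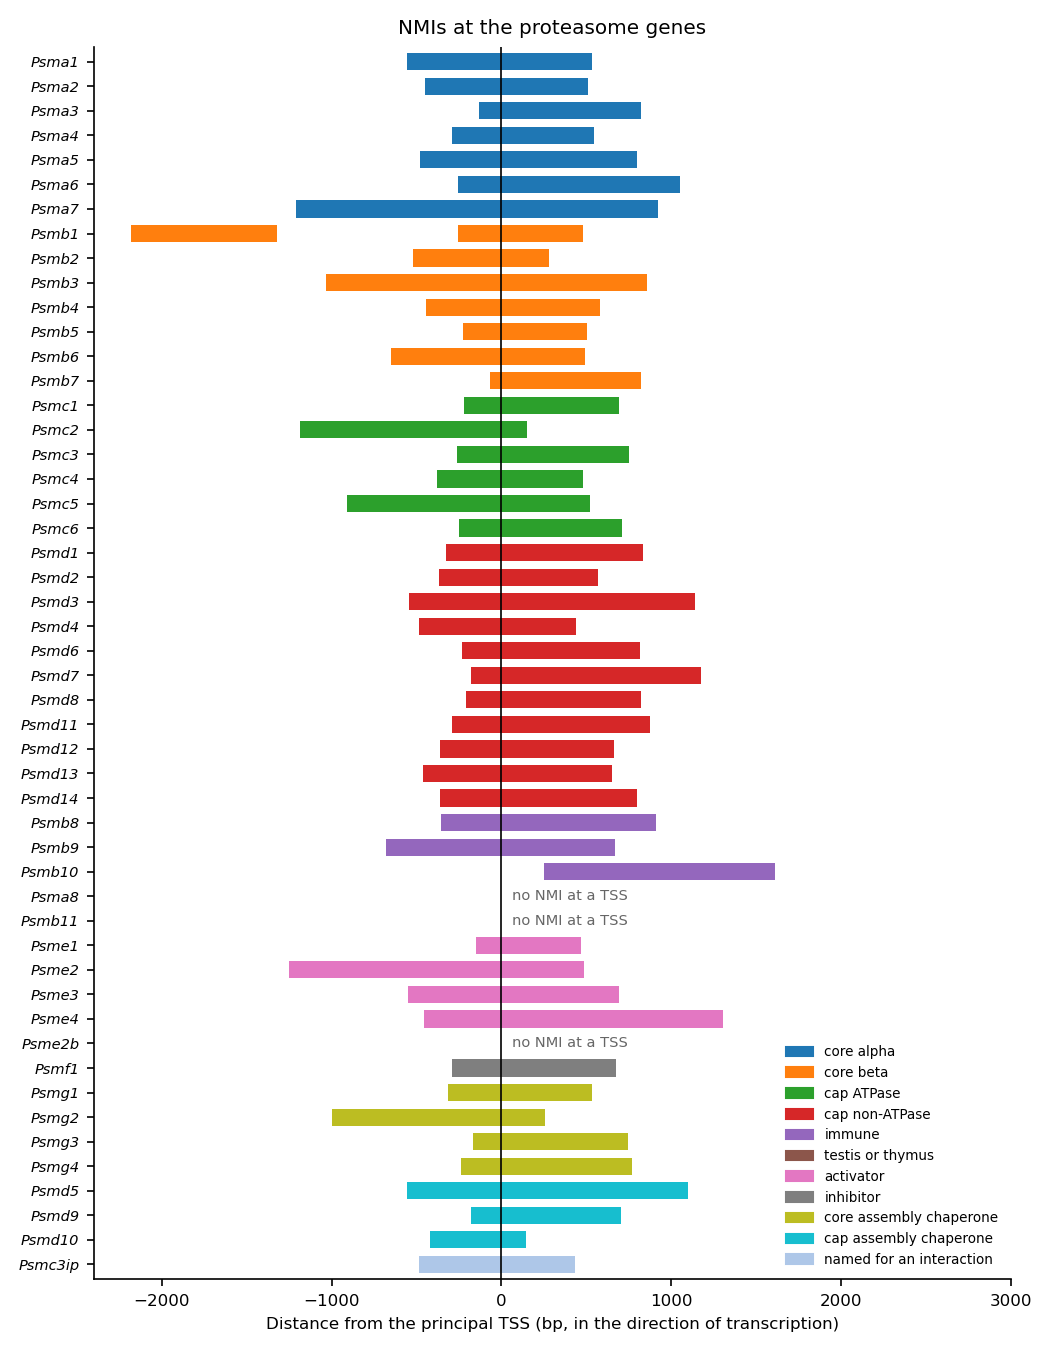
Extent of each NMI that covers a TSS of a proteasome gene, in bp from the principal TSS (vertical line) in the direction of transcription, with 1 row per gene and colour for its class. In 46 genes a bar crosses the line, in Psmb10 the bar starts 249 bp downstream of it, Psmb1 has a bar at the line and another upstream, and 3 genes have none.

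The α subunits form the outer rings of the core and its gate, and 7 of 7 standard α genes had an NMI at the principal TSS, with a median width of 1090 bp. The NMI of Psma7 was the widest of any proteasome gene at 2129 bp (chr2:180041512-180043640), at least as wide as 91.6% of those of protein-coding genes with an NMI, and it held 216 CpG sites. At the other end of the α genes, Psma4 had an NMI of 838 bp with 67 CpG sites. The remaining α genes, Psma1, Psma2, Psma3, Psma5 and Psma6, had NMIs of 955 to 1307 bp. CpG density within 500 bp of the principal TSS was 12.8 per 100 bp at Psma7 and 5.29 to 7.09 per 100 bp at the other 6.

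The standard β genes, 4 structural (Psmb1, Psmb2, Psmb3 and Psmb4) and 3 catalytic (Psmb5, Psmb6 and Psmb7), also had an NMI in 7 of 7, with a median width of 893 bp. Psmb3, a structural subunit, had the widest at 1890 bp, and the other widths stayed at or below 1142 bp. Among the catalytic genes, Psmb5 had an NMI of 732 bp with 54 CpG sites, Psmb7 (trypsin-like) one of 893 bp with 58 CpG sites, and Psmb6 (caspase-like) one of 1142 bp with 43 CpG sites. Psmb6 therefore had the longest NMI of the 3 catalytic genes and the fewest CpG sites, and its CpG density at the TSS, 4.00 per 100 bp, was the lowest of the core. Psmb1 was the only proteasome gene with start sites in separate NMIs. Its principal TSS lay in an NMI of 737 bp (chr17:15497818-15498554), and a coding transcript that starts 1453 bp upstream lay in an NMI of 857 bp (chr17:15499621-15500477) shared with Tbp, the TATA-binding protein gene. The wider of the 2 is the one used for Psmb1 in all widths given for groups, and the one at the principal TSS in the counts of reach and gene structure.

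In the cap, the ATPase ring genes Psmc1 to Psmc6 had NMIs of 857 to 1438 bp and a CpG density at the TSS of 4.80 to 5.89 per 100 bp, a narrow range. Psmc5 had the widest NMI of the ring (1438 bp) and Psmc4 the narrowest (857 bp). The 11 non-ATPase genes had a median width of 1116 bp. Psmd1 and Psmd2, the large scaffold subunits, had NMIs of 1163 and 936 bp. Psmd4, a ubiquitin receptor, had one of 930 bp, the narrowest of the 11, and also the lowest CpG density of the cap at 4.30 per 100 bp. Psmd14, the enzyme that removes ubiquitin, and Psmd7, its catalytically inactive partner, had NMIs of 1157 and 1353 bp. The other lid genes, Psmd3, Psmd6, Psmd8, Psmd11, Psmd12 and Psmd13, ranged between 1024 bp at Psmd12 and 1686 bp at Psmd3. As a class the cap (median 1049 bp, quartiles 961 and 1164 bp) and the core (median 995 bp, quartiles 866 and 1243 bp) overlapped over most of their range, and their median CpG densities at the TSS were 5.89 and 5.79 per 100 bp.

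Assembly chaperones are not part of the finished particle but also had NMIs. Psmg1, Psmg2, Psmg3 and Psmg4, which pair up to build the core, had NMIs of 850, 1257, 911 and 1008 bp. Psmg2 had the second highest CpG density of all 50 genes, 10.1 per 100 bp at the TSS and 130 CpG sites in its NMI. The chaperones of the ATPase ring, Psmd5, Psmd9 and Psmd10, differed more, with NMIs of 1655, 886 and 566 bp. Psmd10, also known as gankyrin, had the narrowest NMI of all members and the fewest CpG sites (15), at a CpG observed-to-expected ratio of 0.412, where the ratio sets the CpG count against what the C and G content predicts. Psmf1, which encodes an inhibitor of the core, had an NMI of 971 bp. The name pattern also takes in Psmc3ip, a factor of meiotic recombination that is not a proteasome subunit, and its NMI was 922 bp. Without Psmc3ip and the 4 core chaperones, 42 of 45 genes had an NMI.

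Activators bind the ends of the core in place of the cap, and 4 of 5 activator genes had an NMI. Psme4, the large single-chain activator, had one of 1763 bp with 124 CpG sites, and Psme3, the nuclear ring activator, one of 1248 bp with 79. The interferon-inducible pair differed. Psme2 had an NMI of 1736 bp with 88 CpG sites, and Psme1 one of 622 bp with 28. Both had fewer CpG sites at the TSS than Psme3 and Psme4, with 3.70 per 100 bp at Psme2 and 3.30 at Psme1, against 7.19 at Psme3 and 8.29 at Psme4.

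Each immune gene had an NMI, at widths of 1265 bp (Psmb8, chr17:34197435-34198699), 1347 bp (Psmb9, chr17:34187097-34188443) and 1364 bp (Psmb10, chr8:105936832-105938195). Their standard counterparts had 732 bp at Psmb5, 1142 bp at Psmb6 and, for Psmb10, 893 bp at Psmb7, so the immune NMI was the wider in all 3 pairs. The NMI of Psmb9 also holds start sites of Tap1, and that of Psmb10 does not cover its principal TSS. CpG sites in the NMI numbered 65 in Psmb8 and 54 in Psmb5, 78 in Psmb9 and 43 in Psmb6, and 64 in Psmb10 and 58 in Psmb7. Density ran the other way in 2 of the pairs. At the principal TSS it was 4.40 per 100 bp at Psmb8 and 5.99 at Psmb5, and 1.60 at Psmb10 and 5.69 at Psmb7, while Psmb9 had 6.59 and Psmb6 4.00. The observed-to-expected ratio inside the NMI was 0.602 at Psmb8, 0.603 at Psmb9 and 0.561 at Psmb10, against 0.842 at Psmb5, 0.653 at Psmb6 and 0.834 at Psmb7, lower in the immune gene each time. These are values of 3 pairs, with no test of the direction.

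Psmb10 (ENSMUSG00000031897.9) was the only gene of the 47 whose NMI missed the principal TSS. The TSS lies at chr8:105938444 and the NMI starts 249 bp downstream of it, ends 1612 bp downstream and lies within the gene. The 6 start sites it covers belong to 5 transcripts with a retained intron and 1 processed transcript, none of them annotated as coding. Of the 1364 bp, 684 bp were exonic in the principal transcript, over 5 of its 8 exons, and the start codon, 434 bp from the TSS, was inside. CpG density within 250 bp of the principal TSS was 1.00 per 100 bp, the lowest of all 50 genes.

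The other immune genes lie 10026 bp apart on chromosome 17, by their principal TSSs, with the peptide transporter genes Tap1 and Tap2 beside them. Psmb9 and Tap1 are transcribed in opposite directions and shared 1 NMI, with their nearest start sites 30 bp apart and their principal TSSs 211 bp apart inside the overlap of the genes. A separate NMI of 183 bp lay within the body of Psmb9. Psmb8 had 5 of its 6 start sites in its NMI, and no other gene started there. The RefSeq starts of Psmb8 and Psmb9 lie 405 and 434 bp downstream of the GENCODE ones and both promoter windows were wholly in the NMI, with 11 and 17 CpG sites. Tap2 had an NMI of 1813 bp that, like that of Psmb10, missed the principal TSS, by 729 bp. Among other genes of class I presentation, the NMI covered the principal TSS of Tap1, Tapbp and B2m. It missed that of Erap1, which encodes a peptide-trimming enzyme, by 181 bp. Nlrc5, an activator of class I genes, had an NMI of 431 bp at another of its start sites. Its principal TSS was 38281 bp from the nearest NMI.

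**Figure D2:**
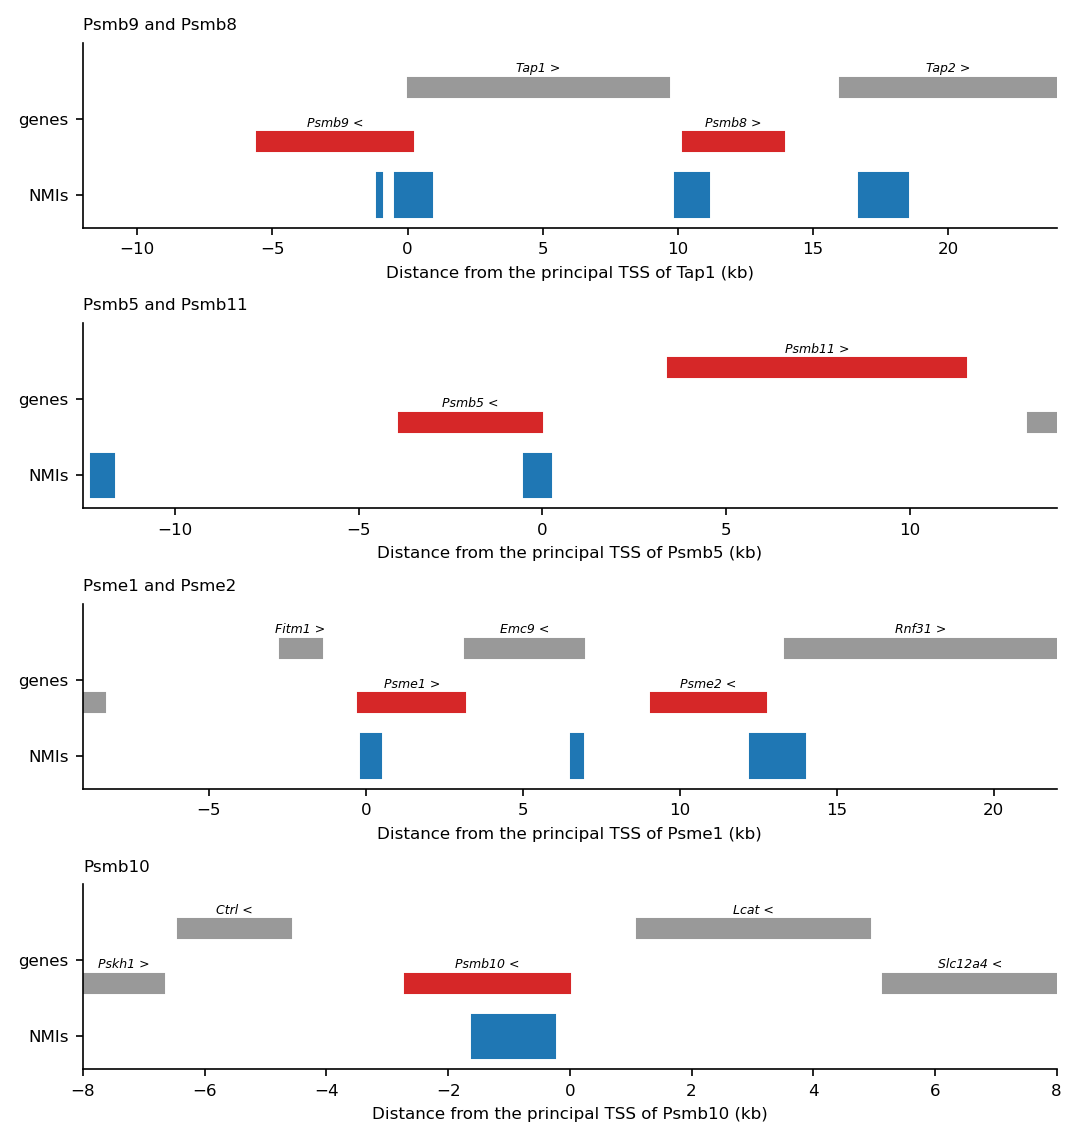
NMIs (blue) and genes (red, proteasome genes; grey, other genes; arrowheads give the direction) at 4 loci, in kb from the principal TSS named under each panel. Psmb9 and Tap1 share an NMI, the NMI of Psmb5 ends before Psmb11 begins, Psme2 shares an NMI with Rnf31, and that of Psmb10 lies within the gene.

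Of the genes without an NMI, Psmb11 (ENSMUSG00000072423.5) is a neighbour of its standard counterpart. Psmb5 and Psmb11 run away from each other with principal TSSs 7288 bp apart on chromosome 14, and the closest NMI to Psmb11 was that of Psmb5, 7060 bp from the principal TSS and 3183 bp from the nearer of its 2 start sites. CpG density at the Psmb11 TSS was 3.30 per 100 bp, against 5.99 at Psmb5. Psme1 had the same density as Psmb11, 3.30 per 100 bp, with an NMI. Within 250 bp of the TSS the densities were 2.59 at Psmb11 and 5.59 at Psme1, so the sites of Psme1 lay closer to its TSS. Coding sequences of Psmb11 and Psmb5 were 65.2% identical over 741 aligned bp.

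Psme2b (ENSMUSG00000078153.3) has 1 exon and 1 start site on chromosome 11, and the nearest NMI was 73989 bp away. Its CpG density at the TSS was 1.60 per 100 bp, against 3.70 at Psme2, which has 11 exons. The coding sequences were 99.3% identical, with 712 of 717 bases matching, and reads without a unique position had been discarded before the NMI call, whose part in the absence of an NMI at Psme2b was not tested. Of the 300-base windows, Psme2b's held 2 CpG sites and Psme2's 11. The 4 processed pseudogenes whose symbol names a proteasome gene, copies without a coding role, also had no NMI, where 48 of 13132 processed pseudogenes had one (0.366%).

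Psma8 (ENSMUSG00000036743.4), the testis α subunit, has 6 start sites, the nearest of which was 22706 bp from an NMI. Its CpG density within 500 bp of the principal TSS was 2.90 per 100 bp, against 12.8 at Psma7, the gene it resembles with 74.9% identity over 744 aligned coding bases. Psmd10 had a slightly lower density, 2.80 per 100 bp, and an NMI. Within 250 bp of the TSS the density was 4.59 per 100 bp at Psma8 and 3.79 at Psmd10, so Psma8 had the higher value there as well.

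**Figure D3:**
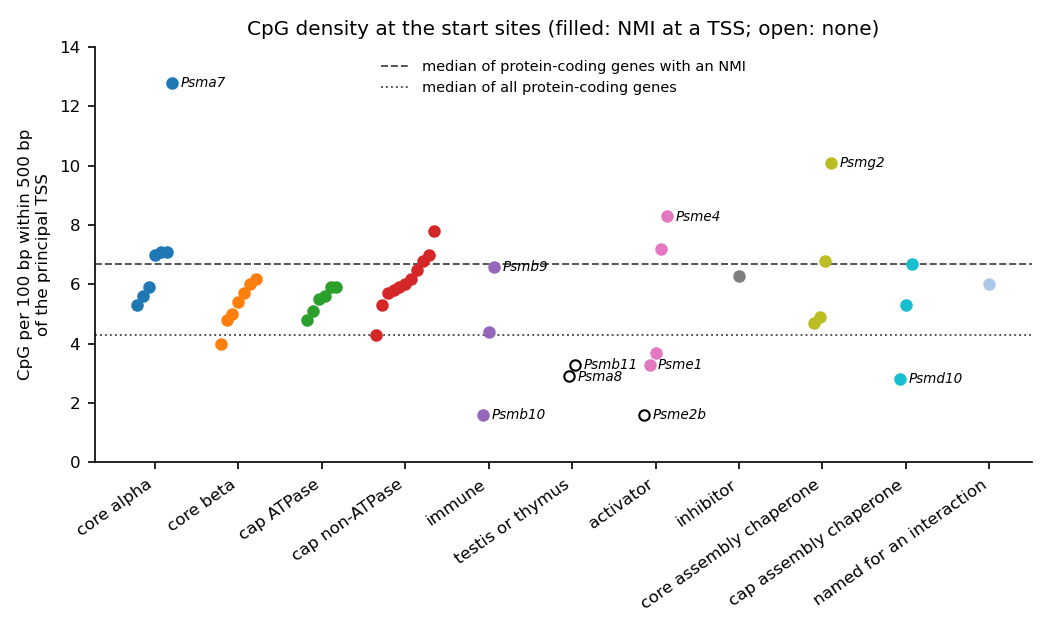
CpG sites per 100 bp within 500 bp of the principal TSS for each of the 50 proteasome genes by class (filled points, NMI at a TSS; open points, none), with medians of protein-coding genes as lines. Every gene above 4 per 100 bp is filled, and the 3 open points lie between 1.60 and 3.30.

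CpG density at the start sites ordered these outcomes in part. Below 2 CpG sites per 100 bp lay 2 proteasome genes, of which Psmb10 had an NMI and Psme2b did not, and 5.66% of protein-coding genes in that class had one. From 2 to 4 per 100 bp lay 6 proteasome genes, and Psmb6, Psmd10, Psme1 and Psme2 had an NMI while Psma8 and Psmb11 did not, beside 32.8% of protein-coding genes. From 4 to 6 per 100 bp, 25 of 25 proteasome genes had an NMI, beside 72.8% of protein-coding genes, from 6 to 8 it was 14 of 14 beside 81.1%, and at 8 and over 3 of 3 beside 83.8%. The share among proteasome genes was above that of protein-coding genes in each class, but in the lowest class this rests on Psmb10, whose NMI does not cover the principal TSS where its density was measured. With the principal TSS alone that class held 0 of 2 proteasome genes with an NMI, beside 0.369% of protein-coding genes, and the other classes kept their counts of proteasome genes.

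Proteasome genes had denser start sites than protein-coding genes as a whole and less dense ones than those with an NMI. The median CpG density of all 50 was 5.74 per 100 bp (range 1.60 to 12.8), against 4.30 for all protein-coding genes. Among genes with an NMI it was lower, at 5.89 per 100 bp for the 47 proteasome genes, against 6.69 for protein-coding genes. Inside the NMIs the medians were 5.83 CpG sites per 100 bp for proteasome genes and 6.86 for protein-coding genes, with 65 and 84 CpG sites per NMI and observed-to-expected ratios of 0.735 and 0.764, in the same order. In bins of 200 bp the density was highest just downstream of the TSS, at a median of 8 per 100 bp for proteasome genes with an NMI and 9.5 for protein-coding genes with one, and at 2 for protein-coding genes without.

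**Figure D4:**
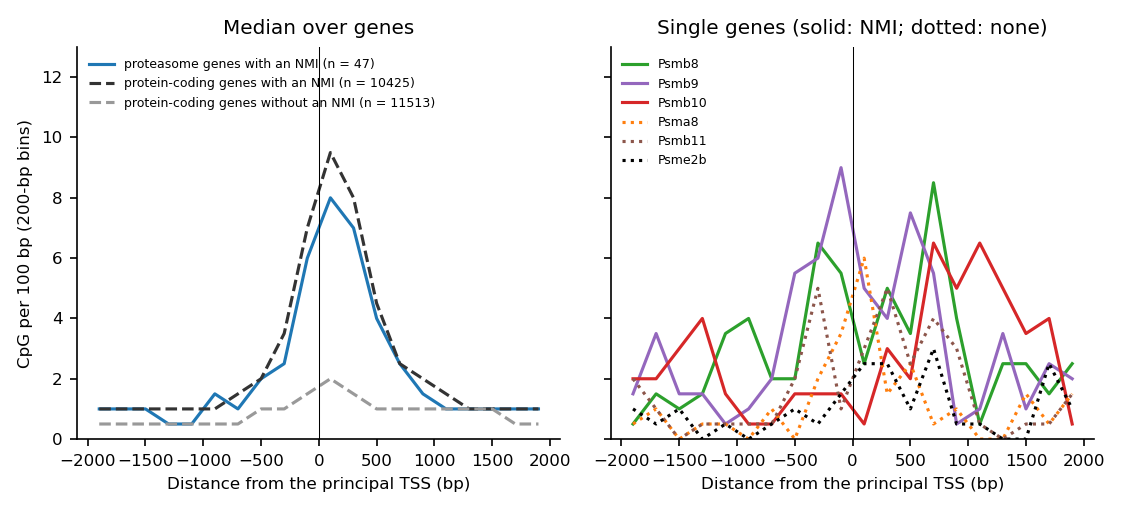
CpG sites per 100 bp in 200-bp bins against distance from the principal TSS, as medians over gene sets (left) and for single genes (right; solid, NMI; dotted, none). Proteasome genes with an NMI reach 8 just downstream of the TSS, against 9.5 for all protein-coding genes with one, and Psmb10 has its highest values beyond 500 bp downstream.

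The NMIs of proteasome genes lay toward the narrow side of those of protein-coding genes. Over the 47 genes they had a median of 1032 bp (quartiles 917.5 and 1292 bp, range 566 to 2129 bp), against a median of 1210 bp (quartiles 921 and 1592 bp) over protein-coding genes with an NMI. In the bins set by the quartiles of protein-coding genes, 12 proteasome genes fell in the narrowest, 19 and 10 in the next and 6 in the widest, which were Psma7, Psmb3, Psmd3, Psmd5, Psme2 and Psme4. Genes of other multi-subunit machines were taken by symbol and measured alike. Mediator and RNA polymerase II genes had an NMI in 42 of 43 with a median width of 1032 bp, and cytosolic ribosomal protein genes in 77 of 83 with a median width of 1309 bp. Median CpG density at the TSS was 5.74 per 100 bp in proteasome genes, 5.99 in the Mediator and polymerase genes and 6.59 in the ribosomal genes.

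From the principal TSS the NMI reached a median of 364.5 bp upstream and 684 bp downstream in the 46 genes where it covered that site, against 421 and 723 bp in protein-coding genes. It reached farther downstream than upstream in 33 of 46 proteasome genes (71.7%) and in 75% of protein-coding genes. The cap showed this in 14 of 17 genes and the core in 9 of 14. Upstream reach exceeded downstream reach by most at Psmc2 (1185 bp upstream, 150 bp downstream), Psme2 (1248 bp upstream, 487 bp downstream) and Psmg2 (996 bp upstream, 260 bp downstream), each of which shared its NMI with a neighbour.

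In the gene structure, the first exon of the principal transcript lay wholly inside the NMI in 45 of 46 proteasome genes (97.8%) and in 93.8% of protein-coding genes with the principal TSS in an NMI. The exception was Psmc2, where 151 of the 235 bp of the first exon were inside. The start codon was inside in 43 of 46 proteasome genes (93.5%), against 66.9% of protein-coding genes. It lay outside in Psma4, Psmc2 and Psmd14, whose start codons are 1316, 1406 and 11020 bp from the TSS.

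Of the 249 annotated start sites of the 47 genes, 168 (67.5%) lay in an NMI, against 59.5% of those of protein-coding genes with an NMI. For transcripts typed as coding the shares were 80 of 103 in proteasome genes (77.7%) and 74.7% in protein-coding genes. For transcripts with a retained intron they were 57 of 95 in proteasome genes (60%) and 40.5% in protein-coding genes.

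The NMI also held a start site of another protein-coding gene in 12 of the 47 genes (25.5%), against 23.7% of protein-coding genes with an NMI, a share close to the background. In 10 cases, counting 1 non-coding partner, the genes ran apart from a common NMI. Gaps between the nearest start sites inside the shared NMI were 32 bp for Psmc2 and Dnajc2, 75 bp for Psma2 and Mrpl32 and for Psmc5 and Ftsj3, 76 bp for Psma7 and Ss18l1 and for Psmc3 and Gm13778, and 99 bp for Psmd13 and Sirt3. They were wider for Psmb1 and Tbp (137 bp, or 1590 bp from the principal TSS of Psmb1, which lies in its other NMI), Psmd10 and Atg4a (179 bp), Psmg2 and Cep76 (263 bp) and Psme2 and Rnf31 (595 bp). Psma4 with AY074887, Psma5 with 1700010K24Rik and Psmd3 with Gm12356 had partners that start within the gene on the other strand, as Psmb9 has with Tap1, and Psmg3 shared its NMI with Gm26938 on its own strand. Psme1 and Psme2 lie 12727 bp apart on chromosome 14, and each had its own NMI. Another of 401 bp lay between them, inside Emc9 near its 5′ end.

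Short motifs were counted on both strands of the 300-base windows. In Psmb8, Psmb9 and Psmd13 the RefSeq start lies 405, 434 and 426 bp downstream of the GENCODE one. Their windows held no base upstream of the GENCODE principal TSS, so those bases were not searched. CCGGAA, the core bound by ETS factors, was found in 21 of 42 proteasome genes (50.0%), against 32.7% of protein-coding genes with an NMI and 19.9% of all protein-coding genes in the table. Of the ATPase genes in the table, Psmc1, Psmc2, Psmc5 and Psmc6 had it and Psmc4 did not. Of the β genes, Psmb4 had it, and the immune and thymus genes Psmb8, Psmb9, Psmb10 and Psmb11 lacked it, as did the standard Psmb3, Psmb5 and Psmb6. CCAAT was found in 14 (33.3%, against 39.1% of protein-coding genes with an NMI and 38.6% of all), TATAAA in 4 (9.52%, against 5.82% and 12.9%) and TGACNNNGC, the core of the antioxidant response element, in 6 (14.3%, against 15.0% and 13.3%). An interferon response core, 2 copies of GAAA with any 2 bases between them, was found in 5 genes (11.9%, against 2.66% and 3.49%), namely Psmb3, Psmd4, Psmd9, Psme1 and Psmg4. These matches describe letters in a window and are not binding sites, and the motifs can overlap each other.

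Genes that work with the proteasome mostly had NMIs as well, where 47.5% of all protein-coding genes had one. Of 43 genes matched from 44 in 7 lists (cap subunits with other names, assembly and associated factors, regulators of proteasome gene expression, ubiquitin genes, shuttle factors, the segregase and class I presentation), 40 had one. The widest were at Akirin2 (2356 bp), which helps import proteasomes into the nucleus, Ubb (2342 bp), a polyubiquitin gene, Uchl5 (2271 bp), a deubiquitinase of the cap, and Nfe2l2 (2184 bp), a transcription factor of the oxidative stress response. Those without one included Ubqlnl and Ddi1, relatives of shuttle factors with 1 start site each and CpG densities of 0.899 and 0.20 per 100 bp. Of 10 mammary epithelial marker genes (Epcam, Cdh1, Krt8, Krt18, Krt19, Krt7, Krt5, Krt14, Cldn4 and Cldn7), none had an NMI at a TSS in this list, and no expression value bears on the labelled cell type here. Cdh1 (6.69 per 100 bp) and Cldn7 (6.09) fell in the density class from 6 to 8, where 81.1% of protein-coding genes had an NMI. Krt7 (5.29) and Krt18 (4.60) fell in the class from 4 to 6, where 72.8% of protein-coding genes had one. The other markers had lower densities, down to 2.30 per 100 bp at Krt5 and Krt14.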

How the data were processed

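Genomic DNA of C127 cells was captured by Bio-CAP and sequenced as 1 library. The authors' methods name Bowtie2 as the aligner to mm10 and SAMtools for duplicate removal. Multiply mapping reads were not kept, and NMIs were peaks of the MACS algorithm under a false discovery rate limit (MACS2 in the submitters' processing notes). For the software versions, and for whether the input served as control of this call, the sources used here give nothing. The deposited file holds only the chromosome, start and end of each NMI, with no score, so the depth is unknown. Starts counted from 0 were converted to counting from 1.

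Transcript 5′ ends were taken from GENCODE M21. The principal TSS is that of the transcript with the highest APPRIS rank, then basic tag, support level and coding length. An NMI had to overlap a TSS by at least 1 bp. CpG density was counted in the RefSeq GRCm38.p6 genome within 500 bp of the TSS, and promoter windows were read from the RefSeq table. Where a gene had several NMIs (Psmb1), its width and CpG content are those of the widest, while reach and gene structure use the NMI at the principal TSS. Intervals are exact Clopper-Pearson at 95% (SciPy 1.17.1, Python 3.11.15). Coding sequences were aligned globally with Biopython. The overlap code was tested on simulated positions.

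All 50 genes are named, with their paralog pairs and every gene that shares a member's NMI. For the pathway lists, genes without an NMI and those with the widest were named, together with class I genes, and some list members are not reported here. The members and lists were chosen with earlier results of these data known. Alternatives changed the distance allowed, the TSS used, the NMIs kept and the window for density.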

Additional observations from a re-analysis of the deposited data

How the results depend on the processing

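No paired analysis was possible because the NMI list comes from 1 library. Of 47 alternatives over 11 results, 45 stayed close to the values reported (counts within 1.5 times, medians within their order-statistic interval) and none reversed. The limit for counts is wide for small classes: a fall from 3 to 2 immune genes passed it, and the testis or thymus pair stayed at 0. The exceptions follow from the window itself: the median CpG density at the principal TSS of the proteasome genes was 7.19 per 100 bp within 250 bp and 3.90 within 1000 bp, against 5.74 within 500 bp. Of the 50 proteasome genes, 47 had an NMI when it could lie within 250 or 1000 bp of a TSS, and 46 had one at the principal TSS or at a coding transcript, each time without Psmb10, which left 2 of the 3 immune genes. Leaving out NMIs below the lower width quartile (572.5 bp) gave 46, without Psmd10. RefSeq starts in place of GENCODE ones, an alternative chosen after seeing the data, gave 46, without Psmb10. The outermost TSS alone gave 41, without Psma6, Psmb10, Psmd5, Psmd9, Psme1 and Psmf1, and 9330 of the protein-coding genes. Without heights, depth or a replicate, a missed or weak NMI cannot be told apart from none.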
